A study of Mus musculus with 12 samples.

Results

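4-hydroxytamoxifen (4-OHT) was compared with vehicle in lymphoma cells that carried an empty retroviral vector, across 13111 of 23479 genes and in 6 of the study's 12 RNA-seq libraries. The 13111 genes were those that reached a value of 10 in 3 or more of the 12 libraries, and 10636 of them also met that rule over the 6 vector libraries alone. The study used cultured cells of 1 B cell lymphoma from a C57BL/6 mouse that carried the Eµ-Myc and Eµ-rtTA transgenes, both driven by the immunoglobulin heavy chain enhancer that is active in B cells. All cells grew with interleukin-7 and had been selected with puromycin. One line carried the empty retrovirus and the other a TFEB-ERT2 fusion, in which TFEB, a transcription factor of lysosome genes, has Ser-211 changed to Ala and is joined to ER-T2, a form of the estrogen receptor's ligand-binding part that is altered to respond to 4-OHT. Each line was kept for 4 days in vehicle or in 4-OHT, with 3 libraries per group, so the vector line shows what the ligand does where there is no fusion protein to activate. The dose is 250 nM in the treatment label but 250 ng/mL in the design text and so is not certain, and the vehicle is not named. The labels do not say whether the 3 libraries of a group came from separate cultures, so the p-values reflect only how these samples vary, which may be technical.

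4-OHT is the active metabolite of tamoxifen and binds estrogen receptors, where it recruits corepressors in place of coactivators in breast tissue and can act as an agonist elsewhere. It reaches other proteins as well. Tamoxifen and its metabolites bind the sterol isomerase EBP and other steps of late cholesterol synthesis, the membrane estrogen receptor GPER1 and the aryl hydrocarbon receptor. Cells react to a block in sterol synthesis by processing SREBP2, which switches on the genes of the mevalonate and sterol pathway, and to loss of amino acids or to unfolded protein by way of ATF4, XBP1 and ATF6.

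The 6 vector libraries held 13709440 to 22109283 reads. They had 15342, 12821 and 11390 genes with any read in vehicle and 12602, 19057 and 11892 in 4-OHT, so library 2 of the 4-OHT group stood apart. The calls, the low genes and the gene groups with the most members at a small p are given with and without it. Total reads averaged 20828500 ± 1443130 (SD, n = 3) in vehicle and 16107400 ± 2889490 in 4-OHT (exact permutation p = 0.2, where 3 against 3 cannot give less than 0.1). Pairs of vector libraries within a group gave a chi-square of 11.1 to 21.5 per degree of freedom, more than counting error gives. The B cell genes Cd79a, Cd79b, Pax5, Ebf1, Cd22 and Blnk were all between 3048 and 8996 normalized counts in every vector library. Ms4a1 was at 0 in 5 of them and at 10.7 in library 2 of the 4-OHT group. The summed level of 16 myeloid markers was 10.2 to 39.8 in vehicle and 9.3 to 132 in 4-OHT, with the highest value in that library, and 4 of them, among them Cd14 and S100a8, were at 0 in all 6.

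In vector cells limma called 0 genes higher and 2 genes lower with 4-OHT, and these counts changed with the method. At an adjusted p under 0.05 in limma, the shares of tested genes called higher and lower were 0% and 0.0153%. Tgfb3, which encodes a secreted ligand of the TGF-beta receptor, and Tspan13, a tetraspanin of the cell membrane, were the genes called lower. At an unadjusted p under 0.05 there were 366 higher genes (2.79%) and 456 lower genes (3.48%), together 6.27% of those tested, where the threshold alone gives 5%. The 3 libraries in 4-OHT all lay above the 3 in vehicle for 712 genes (5.43%) and all below them for 700 (5.34%). edgeR's quasi-likelihood test on the whole reads called 0 genes, with 1009 at an unadjusted p under 0.05 and a smallest adjusted p of 0.0708. DESeq2 called 14 higher and 34 lower, but neither Tgfb3 nor Tspan13 was among them. It gave Tspan13 an adjusted p of 0.119 and gave no adjusted p for Tgfb3.

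Tgfb3 lies on chromosome 12 from 86056745 to 86079041 in GRCm38. Its normalized counts were 771, 1595 and 1567 in vehicle and 26.8, 819.8 and 12.7 in 4-OHT. Libraries 1 and 3 of the 4-OHT group were near the bottom of the scale, while library 2 lay among the vehicle libraries, so the groups overlapped. The log2 difference was -4.20 ± 0.73 (SE, 95% interval -5.70 to -2.70), with an adjusted p of 0.035 in limma. Without library 2 of the 4-OHT group it was -6.00, with an adjusted p of 9.4e-11. The call was lost in edgeR, where the adjusted p was 0.25 and the log2 difference -2.28, and in a fit on the vector libraries alone, with an adjusted p of 0.797. In TFEB cells, too, 4-OHT lowered Tgfb3, which fell by 5.20 on the log2 scale, and the 2 changes did not differ past the threshold (interaction adjusted p 0.641, limma).

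Tspan13 had 3309.7, 4475 and 4382 normalized counts in vehicle and 2302, 3190.2 and 1771 in 4-OHT. Every 4-OHT library lay below every vehicle library, and library 2 was again the one nearest to vehicle. The log2 difference was -0.77 ± 0.14 (SE, 95% interval -1.06 to -0.49), a fold of 1.71, with an adjusted p of 0.035 in limma. In TFEB cells Tspan13 fell by 1.31 on the log2 scale, and the interaction had an adjusted p of 0.0618. edgeR gave an adjusted p of 0.0708 and limma on the vector libraries alone gave 0.797, so this call too was lost there. Of the alternatives that gave an adjusted p, 13 of 27 kept the call for Tgfb3 and 13 of 28 for Tspan13. Of the 6 that left out 1 vector library, 2 kept each call, namely those without library 1 of vehicle and without library 2 of 4-OHT.

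No other gene had an adjusted p under 0.1 in limma, and the next smallest was 0.116. Because estrogen receptor, the aryl hydrocarbon receptor and MYC act at short DNA words, the 250 bases before the RefSeq start (GRCm38.p6) are shown for Tspan13 and for the 3 genes next in order of p whose mean was at least 200 and whose groups did not overlap. RefSeq promoters matched 8 of the 11 genes sought. Capitals mark, on both strands, the estrogen response element GGTCANNNTGACC, its single arm GGTCA (also a part of the full element), the aryl hydrocarbon receptor core GCGTG and the E-box CACGTG. The windows are chr12:36042479-36042728 on the minus strand for Tspan13, chr6:115995006-115995255 on the minus strand for Plxnd1, chr3:97158527-97158776 on the plus strand for Acp6 and chr7:89527188-89527437 on the minus strand for Prss23, which has 7 listed starts.
Tspan13: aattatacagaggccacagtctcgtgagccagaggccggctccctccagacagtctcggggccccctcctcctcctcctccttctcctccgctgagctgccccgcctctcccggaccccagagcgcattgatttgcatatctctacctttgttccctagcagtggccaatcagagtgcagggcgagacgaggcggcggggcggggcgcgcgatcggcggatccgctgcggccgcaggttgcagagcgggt
Plxnd1: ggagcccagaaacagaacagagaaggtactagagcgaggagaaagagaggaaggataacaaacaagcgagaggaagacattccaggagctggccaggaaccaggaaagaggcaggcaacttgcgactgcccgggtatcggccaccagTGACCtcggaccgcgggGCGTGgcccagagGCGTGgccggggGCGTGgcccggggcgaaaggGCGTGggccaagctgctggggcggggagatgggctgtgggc
Acp6: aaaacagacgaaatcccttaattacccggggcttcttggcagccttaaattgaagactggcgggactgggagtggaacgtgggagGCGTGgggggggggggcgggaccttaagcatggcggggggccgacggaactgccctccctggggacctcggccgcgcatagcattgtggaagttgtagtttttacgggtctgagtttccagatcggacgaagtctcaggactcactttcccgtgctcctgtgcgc
Prss23: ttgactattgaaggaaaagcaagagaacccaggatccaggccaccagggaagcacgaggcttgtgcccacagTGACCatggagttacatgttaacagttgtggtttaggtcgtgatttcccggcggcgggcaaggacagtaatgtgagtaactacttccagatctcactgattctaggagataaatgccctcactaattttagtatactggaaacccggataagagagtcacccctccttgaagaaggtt
Tspan13 had no match to any of the 4 words. Plxnd1 had 1 single arm and 4 GCGTG cores, Acp6 had 1 GCGTG core, and Prss23 had 1 single arm. Among 27025 RefSeq promoters of this length, 0.0629% held the full element, 34.9% a single arm, 28.2% a GCGTG core and 6.05% an E-box, and among those of 9587 tested genes the shares were 0%, 33%, 44.9% and 8.32%.

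Plxnd1, a receptor for semaphorins, had 502, 673 and 765 normalized counts in vehicle and 357, 473 and 301 in 4-OHT, with no overlap. Its log2 difference was -0.78 ± 0.16 (SE, adjusted p 0.116 in limma). In TFEB cells the difference was 0.40 in the other direction (adjusted p 0.0606), and the interaction passed the threshold with an adjusted p of 0.000254. Prss23, a serine protease with a single arm in the window above, had 248, 183 and 199 in vehicle and 404, 270.5 and 417 in 4-OHT, all 3 above vehicle. Its log2 difference was 0.78 ± 0.16 (adjusted p 0.116) against 4.03 in TFEB cells, where it rose. Acp6, a mitochondrial lysophosphatidic acid phosphatase, had 1244, 1402 and 1287 in vehicle and 839, 1036 and 830.3 in 4-OHT. Its log2 difference was -0.55 ± 0.11 (adjusted p 0.116), and it fell by 1.52 in TFEB cells.

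Of the remaining genes with groups apart and the smallest p at an average of 200 or more, 5 were lower in 4-OHT libraries and Ppid was higher, and none passed the threshold in limma. Acss1, which makes acetyl-CoA from acetate in mitochondria, had a log2 difference of -0.52, with 2309, 2719.7 and 2869.7 in vehicle and 1913, 2149 and 1491 in 4-OHT. Cd97, an adhesion receptor of leukocytes, had -0.47, and in TFEB cells both of these genes rose, Acss1 by 1.99 and Cd97 by 1.04 on the log2 scale. Erg, an ETS transcription factor of blood precursors, had -0.51 and fell by 2.74 in TFEB cells. Pck2, the mitochondrial enzyme that makes phosphoenolpyruvate and a known ATF4 target, had -0.57, with 1753, 2192 and 2222 in vehicle and 1373, 1726 and 1110.1 in 4-OHT. Cdc25b, a phosphatase that activates CDK1, had -0.45, close to its -0.43 in TFEB cells. Ppid, a cyclophilin that works with HSP90, had 3045, 2831 and 3056 in vehicle and 3688, 3535 and 4447 in 4-OHT, a log2 difference of 0.38 against 0.38 in TFEB cells.

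**Figure D1:**
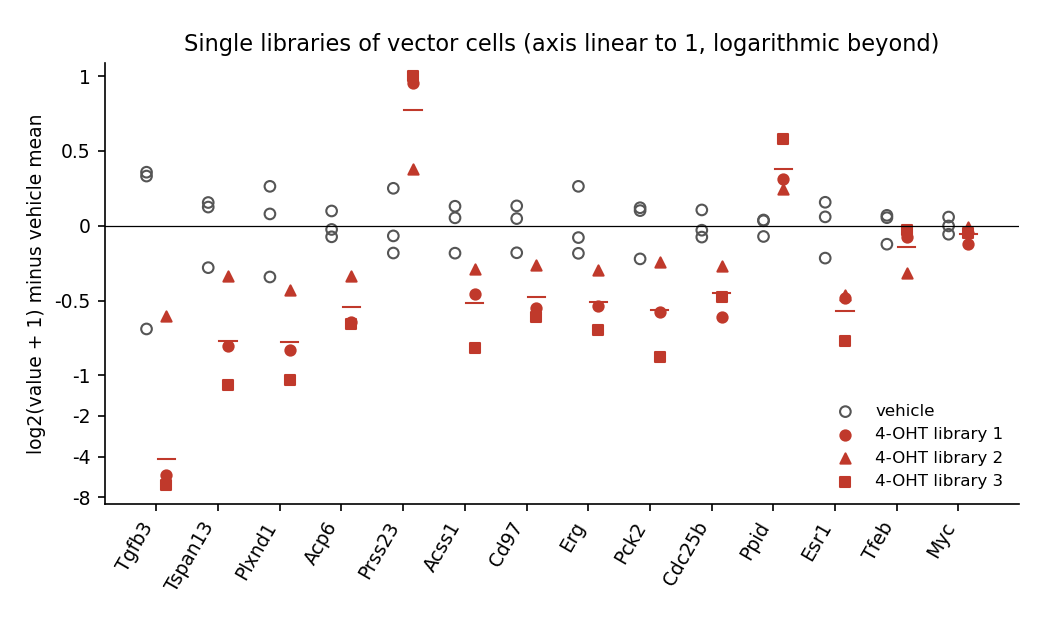
Each gene's value in single vector libraries, as log2(value + 1) minus the mean of the 3 vehicle libraries, on an axis that is linear to 1 and logarithmic beyond. Open circles are vehicle, red symbols the 3 libraries in 4-OHT and red bars their mean, and the red triangle, library 2, is the red symbol nearest to the vehicle mean for Tgfb3 and Tspan13.

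Among the 619 genes that averaged 200 or more and had an unadjusted p under 0.05, of which 255 were higher and 364 lower, library 2 was the 4-OHT library nearest to the vehicle mean for 417. Library 1 was nearest for 125 and library 3 for 77, and library 3 was the farthest for 371. Over all 7707 genes that averaged 200 or more, the same counts of nearest genes were 2295, 3455 and 1957 for libraries 1, 2 and 3. Only Tgfb3 and Heyl, a target of Notch signalling, had a difference of at least 2-fold among the 619, and 46 had at least 1.5-fold. Heyl had 254, 302 and 512 normalized counts in vehicle and 127, 195 and 156 in 4-OHT, apart from each other, with a log2 difference of -1.11 and an adjusted p of 0.782 in limma. It lies outside the naming rule and was chosen after its values were seen. Without library 2 of the 4-OHT group, limma called 9 genes higher and 46 lower, and without library 1 of vehicle 3 and 22. It called none without library 2 or 3 of vehicle or without library 1 or 3 of 4-OHT.

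How small a change these libraries could leave out depended on the level of the gene. A gene's 95% interval, from the limma fit with its pooled spread, was taken to exclude a fold where the whole interval lay within it, so the intervals hold gene by gene and not for all genes at once. Over all 13111 genes the interval reached a median of 0.39 to either side of the estimate on the log2 scale, and the interval lay within 2-fold for 65.3% and within 1.5-fold for 51.3%. For the 8719 genes that averaged 100 or more normalized counts it lay within 2-fold for 96.2%. Of 6896 genes that averaged 300 or more, 91.9% had an interval within 1.5-fold. Above 3000, the median reach was 0.18, which is 1.13-fold, and 98.2% of 1174 genes had an interval within 1.5-fold.

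Genes of low level allowed little to be said. Between 30 and 100 normalized counts, 16.6% of 1050 genes had an interval within 2-fold. Of the 964 genes between 10 and 30 none did, and 18.4% were within 4-fold. Of the 2378 genes under 10, 4 were within 4-fold, and a difference of 2-fold was not detectable with these libraries. In these genes the median log2 difference was 0.93, with 79.1% above 0, and without library 2 of the 4-OHT group it was -0.12, with 34.7% above 0. The filter on level counts the 4-OHT libraries too, so a low gene could pass it partly through library 2. How far this moved the median was not tested. At a mean of at least 100 the median was -0.0036 and without that library 0.0024. The fold that a gene would have needed for the next call was 1.37 above 3000 normalized counts and 2.60 between 100 and 300. The largest fold among genes with an average of 1000 or more was 1.82, in Ccdc40, a cilium gene with 1375, 2540.2 and 1955 in vehicle and 1450.3, 1676 and 468 in 4-OHT, overlapping groups and an adjusted p of 0.351 in limma.

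**Figure D2:**
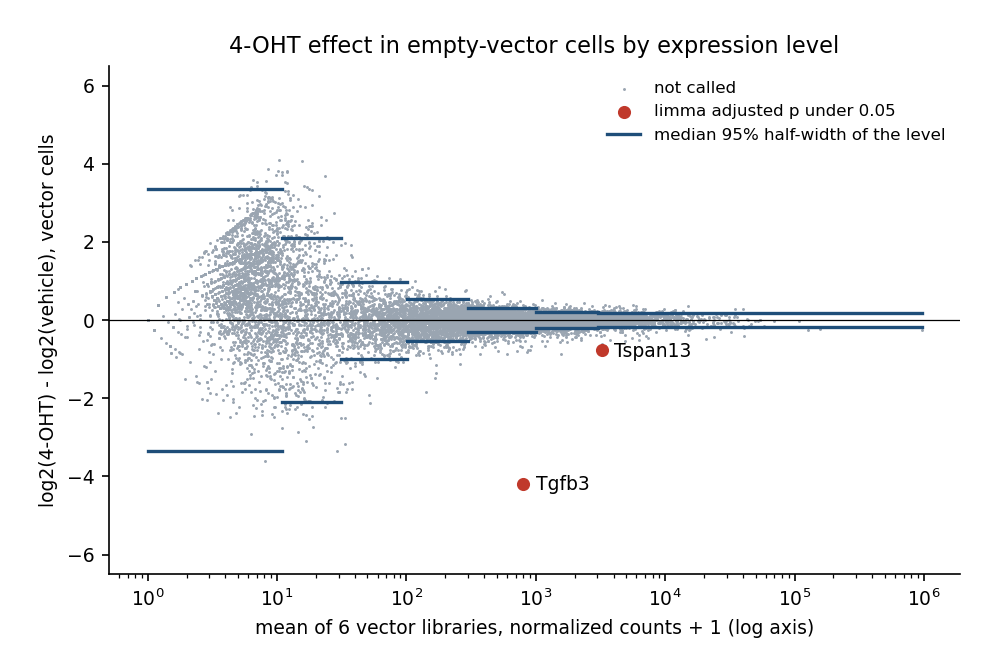
Log2 difference between 4-OHT and vehicle in vector cells for 13111 genes against the mean of the 6 vector libraries (normalized counts plus 1, log axis). Blue lines are the median reach of the 95% interval to either side at each level, 0.18 above 3000 and 3.34 under 10, and the red points are Tgfb3 and Tspan13.

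**Figure D3:**
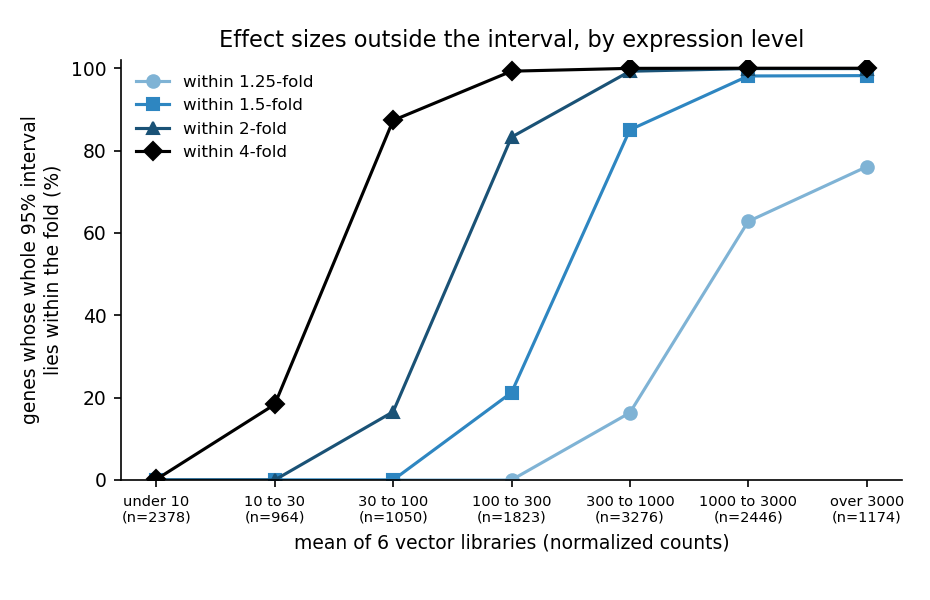
Percentage of genes whose whole 95% interval lies within each of 4 fold limits, the widest being 4-fold, by the mean of the 6 vector libraries in normalized counts, with the number of genes under each level. The share within 2-fold goes from 16.6% at 30 to 100 to 83.3% at 100 to 300 and 99.3% at 300 to 1000.

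In 12 of the 13111 tested genes every vehicle library was at 0 and every 4-OHT library was above the floor of 3 reads. None of the 12 passed the threshold. Anks6 had 8.59, 33.2 and 14.4 normalized counts in 4-OHT, a mean 7.17-fold the highest floor of the vehicle group. The highest of these was in library 2, which had 19057 genes with any read. The adjusted p of Anks6 was 0.495 in limma. The reverse was seen in 1 gene, Gm20740, with 3.69, 13.4 and 25.3 in vehicle, a mean 3.96-fold the highest floor of the 4-OHT group. The 2 genes were chosen after their values were seen.

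Of the 3 estrogen receptor genes, Esr1 alone passed the filter on level in these cells. Esr1, the gene of estrogen receptor alpha, had 158, 191 and 205 normalized counts in vehicle and 131, 133 and 107 in 4-OHT. The groups did not overlap, but the log2 difference of -0.57 ± 0.28 (SE) had an adjusted p of 0.797 in limma. Esr2, the gene of estrogen receptor beta, had 0 reads in 4 of 6 libraries and at most 4.29 normalized counts, and Gpr30, the older symbol of Gper1, had at most 1.19. Both were left out by the filter. Nr3c1, the glucocorticoid receptor and the most abundant of 13 receptor genes listed, had a difference of 0.096 (95% interval -0.091 to 0.28). Of the 7 tested receptor genes none passed the threshold. Esr1 alone was lower at an unadjusted p under 0.05, beside 3.48% of all tested genes.

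Most coregulators of the receptor had narrow intervals around no change. Of 16 tested, 14 had an interval within 1.5-fold, and the median difference of the 16 was 0.03, beside 0.027 over all tested genes. The share within 1.5-fold was 51.3% over all tested genes and 98.1% over those between 1000 and 3000 normalized counts. Ncor1, the corepressor that antiestrogens recruit, had 12976, 12194 and 13359.8 in vehicle and 12992, 13419 and 13159 in 4-OHT, an interval of -0.12 to 0.20. Safb, a repressor of estrogen receptor alpha, had 3004, 2726 and 2980.2 in vehicle and 3471, 3341 and 3254 in 4-OHT, apart but not past the threshold (0.21, adjusted p 0.66 in limma).

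Genes known to respond to estrogen in other tissues gave no call. Of 25 tested out of 36 listed, 2 were higher at an unadjusted p under 0.05, beside 2.79% of all tested genes. The median difference of the 25 was 0.02. Ccnd1, the gene of cyclin D1, had 833, 843 and 1013 in vehicle and 1024, 981 and 1237 in 4-OHT, which overlapped, and a difference of 0.27 (adjusted p 0.721, limma). Tiam1, an activator of RAC1, had 5.9, 0 and 0 in vehicle and 10.7, 45.1 and 7.61 in 4-OHT, with the highest value in library 2. Greb1, a widely used estrogen target, was at 0 in 5 vector libraries and at 43.9 in library 2 of the 4-OHT group. Myc, which the transgene also drives and whose counts cannot be split between transgene and endogenous gene, had 32275, 31060.3 and 33633 in vehicle and 29679.7, 32175 and 31308 in 4-OHT, a difference of -0.058 (95% interval -0.23 to 0.11). Bcl2, an inhibitor of apoptosis, had only 13.3, 39.3 and 7.84 in vehicle and 20.4, 56.9 and 14.4 in 4-OHT, with an interval from -0.18 to 1.45.

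Genes of sterol synthesis, which SREBP2 controls, did not pass the test in either direction. Of 25 tested, 24 had an interval within 2-fold and 21 within 1.5-fold, 12 were above 0 and 13 below, and the median was -0.06. Of the 8719 genes that averaged 100 or more, 96.2% had an interval within 2-fold and 77.1% within 1.5-fold. Hmgcs1, a synthase at the start of the mevalonate pathway, had 1622, 1791 and 1916 in vehicle and 1932, 1790.3 and 1791 in 4-OHT, which overlapped. Its interval was -0.14 to 0.25. Ebp itself had 238, 235 and 255 in vehicle and 338, 211 and 319 in 4-OHT, with an interval of -0.19 to 0.63. Cyp51, which removes a methyl group from lanosterol, had a difference of 0.13. At an unadjusted p under 0.05, 1 member was lower and 0 were higher, beside 3.48% and 2.79% of all tested genes. Without 1 vector library at a time, 0 to 3 members were lower and 0 to 1 higher. In TFEB cells, where 27.5% of all tested genes were called, 4 of the 25 rose and 10 fell. For Fdps, which makes farnesyl pyrophosphate, the difference of -0.12 in vector cells differed from the -0.90 in TFEB cells (interaction adjusted p 1.09e-05), and for Srebf2, the SREBP2 gene, -0.14 differed from -0.62 (adjusted p 0.00398). Mylip, a ubiquitin ligase and LXR target, had a difference of -0.44 (adjusted p 0.492, limma).

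The aryl hydrocarbon receptor pathway was mostly below the filter, with 3 of 11 listed genes tested. Ahr had 5.16, 0 and 0 in vehicle and 0, 17.8 and 0 in 4-OHT. Its partner Arnt had 1293, 1281 and 1194 in vehicle and 1171, 1178 and 1074 in 4-OHT, a difference of -0.14 (adjusted p 0.9, limma). Tiparp, a feedback target that the activated receptor induces, had 586, 641 and 494 in vehicle and 448, 471 and 382 in 4-OHT, all lower, with a difference of -0.40 (adjusted p 0.619). It rose by 0.40 in TFEB cells, and the changes differed (interaction adjusted p 0.00757). Ephx1, an epoxide hydrolase of drug metabolism, had a difference of -0.55 (adjusted p 0.619).

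By count, the cell cycle, glycolysis and unfolded protein response lists held the most members at an unadjusted p under 0.05. None of their members passed the adjusted threshold with all libraries. The ATF4 and ribosomal protein lists had 7 lower each, and the B cell precursor list 6 lower and 1 higher. The smaller list of 10 nuclear and noncoding RNAs had 3 lower and 1 higher. Of 26 tested genes of glycolysis and HIF targets, 10 were lower and 0 higher at an unadjusted p under 0.05 (3.48% and 2.79% of all tested genes), 23 were below 0, and the median was -0.29 beside 0.027 over all tested genes. Pgk1, phosphoglycerate kinase, had 7249, 9380.3 and 8925 in vehicle and 6706, 7211 and 4760.1 in 4-OHT, with the lowest value in library 3 (difference -0.47, adjusted p 0.2 in limma). Pkm, pyruvate kinase, had -0.20, and its groups overlapped. Without library 3 of the 4-OHT group 2 of the 26 were lower and the median was -0.08. With library 2 of that group left out 13 were lower, 2 of them past the adjusted threshold, and the median was -0.41. Without library 2 of vehicle 6 were lower, and without library 1 of vehicle 12 were, 1 of them past the adjusted threshold. In TFEB cells, where 27.5% of all tested genes were called, 19 of the 26 fell and 1 rose, with a median of -0.92.

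ATF4 targets and other genes of the integrated stress response had 7 of 24 lower and 0 higher, with a median of -0.21. These counts are at an unadjusted p under 0.05, beside 3.48% lower and 2.79% higher of all tested genes. Without library 3 of 4-OHT, 2 were lower, without library 2 of vehicle 2 were, and over the 6 fits that left out 1 vector library the count was 2 to 10. Asns, asparagine synthetase, had 3189, 3662 and 3531 in vehicle and 2952, 3044 and 2450.2 in 4-OHT, a difference of -0.30 (adjusted p 0.479, limma). Shmt2, a mitochondrial enzyme of serine and one-carbon metabolism, had -0.17. In TFEB cells both fell, by 1.17 for Asns and by 0.70 for Shmt2 on the log2 scale, with interaction adjusted p of 1.69e-05 and 0.00101.

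Genes of the unfolded protein response had 8 of 25 higher and 0 lower, with a median of 0.14. These counts are at an unadjusted p under 0.05, beside 2.79% higher and 3.48% lower of all tested genes. Hsp90b1, the HSP90 of the endoplasmic reticulum, had 13869, 11579.8 and 13835 in vehicle and 17034, 14613 and 18573 in 4-OHT, all higher (difference 0.35, adjusted p 0.218 in limma). In TFEB cells the difference was 0.40 and the interaction adjusted p 0.881. Without library 2 of the 4-OHT group 12 members were higher and 3 passed the adjusted threshold, and without library 3 the count was 5.

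Cell cycle genes had 10 of 46 higher and 1 lower at an unadjusted p under 0.05, beside 2.79% and 3.48% of all tested genes. The cell cycle median was 0.16. Under TMM scaling 5 were higher, without library 2 of vehicle 3 were, and without library 3 of 4-OHT 6 were. With library 2 of 4-OHT left out, 14 were higher, and 1 higher and 1 lower gene passed the adjusted threshold. All 46 had an interval within 2-fold. Mki67, a marker of cycling cells, had 37173, 26551 and 29764 in vehicle and 40668, 33943 and 39239 in 4-OHT, which overlapped (difference 0.29, adjusted p 0.541 in limma). It fell by 0.62 in TFEB cells, and the changes differed (interaction adjusted p 1.59e-05). Ccnd2, the gene of cyclin D2, had 0.18 against -0.35 in TFEB cells. In bulk RNA, fewer cells of a kind and less RNA per cell cannot be told apart.

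Ribosomal protein genes had 31 of 32 below 0 with a median of -0.13. Of all genes that averaged 100 or more, 49.1% were above 0. At an unadjusted p under 0.05, 7 ribosomal protein genes were lower and 0 higher, beside 3.48% and 2.79% of all tested genes. Rps14 had 5589.9, 6679.5 and 4385 in vehicle and 4444, 3709 and 4382 in 4-OHT (difference -0.39, adjusted p 0.412 in limma), and the most abundant, Rpl4, had -0.16. Without library 2 of vehicle none was lower, without library 3 of 4-OHT 3 were, and without library 1 of vehicle 13 were. Rn45s, the ribosomal RNA precursor, took 6.31 ± 0.73% (SD, n = 3) of reads in vehicle and 5.35 ± 0.51% in 4-OHT (exact permutation p = 0.2).

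Genes of B cell identity, stage and survival gave no call with all libraries. Of 23 tested B cell identity genes 4 were higher and 0 lower at an unadjusted p under 0.05, beside 2.79% and 3.48% of all tested genes. The higher count was 1 without library 3 of 4-OHT, 2 without library 1 of 4-OHT or library 3 of vehicle, and up to 5 over the 6 such fits. Pou2f2, the gene of OCT2, had 449, 418 and 426 in vehicle and 590.4, 571 and 971 in 4-OHT, with library 3 far above the others (difference 0.68, adjusted p 0.495 in limma). Of 19 B cell precursor genes 6 were lower and 1 higher, with a median of -0.058. Without library 2 or 3 of vehicle, or library 1 or 3 of 4-OHT, 3 were lower. Leaving out library 2 of 4-OHT, the median was -0.24 and 2 of 7 lower genes passed the adjusted threshold, and without library 1 of vehicle 2 passed it. Igll1, the surrogate light chain gene, was the higher one, with 10016, 9625 and 11113 in vehicle and 11138, 10302 and 14455 in 4-OHT (0.21, adjusted p 0.73). In fits without library 2 of 4-OHT or library 1 of vehicle, 1 of 16 genes of interleukin-7 and STAT5 signalling passed it. Pim2, a survival kinase downstream of interleukin-7, had 763, 1049 and 955 in vehicle and 513, 804 and 456 in 4-OHT, overlapping, with a difference of -0.67 (adjusted p 0.142). Bcl2l2, a relative of Bcl2, had -0.49, and Mcl1, the most abundant survival gene of the list, -0.0073 with an interval of -0.17 to 0.15.

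Lysosome and autophagy genes, which TFEB is known to control, had no called member in vector cells. Of 40 tested lysosomal hydrolase genes 0 were higher and 2 lower at an unadjusted p under 0.05, beside 2.79% and 3.48% of all tested genes. Of the 40, 35 had an interval within 2-fold, and the median was -0.06 against 0.74 in TFEB cells. There were 5 lower hydrolase genes without library 2 of 4-OHT, and without library 3 of 4-OHT or library 2 of vehicle none was. Psap, the precursor of the saposins, had 5700.5, 6680.3 and 6414 in vehicle and 5779, 5270.0 and 4932 in 4-OHT, a difference of -0.23 that differed from its 1.33 in TFEB cells (interaction adjusted p 3.41e-11, limma). Of 31 genes of the lysosomal membrane and proton pump 1 was higher, Atp6ap2, with 517, 524 and 537 in vehicle and 574, 667 and 715 in 4-OHT (0.30, adjusted p 0.737). Laptm5, a lysosomal membrane protein of blood cells, had an interval of -0.23 to 0.12. Of 38 autophagy genes 37 had an interval within 2-fold, and 0 were higher and 0 lower at an unadjusted p under 0.05, with up to 5 lower without 1 vector library. Tfeb had 252, 255 and 223 in vehicle and 231, 195 and 238 in 4-OHT (-0.14, 95% interval -0.45 to 0.17). This differed from its -1.33 in TFEB cells (interaction adjusted p 0.000113, limma). In vehicle, Tfeb averaged 1676 in TFEB cells beside 243 in vector cells. Its reads in TFEB cells cannot be split between the fusion and the endogenous gene. Flcn, a regulator of TFEB at the lysosome, had -0.34, and Mtor, the kinase of mTORC1, 0.055 with an interval of -0.11 to 0.22.

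**Figure D4:**
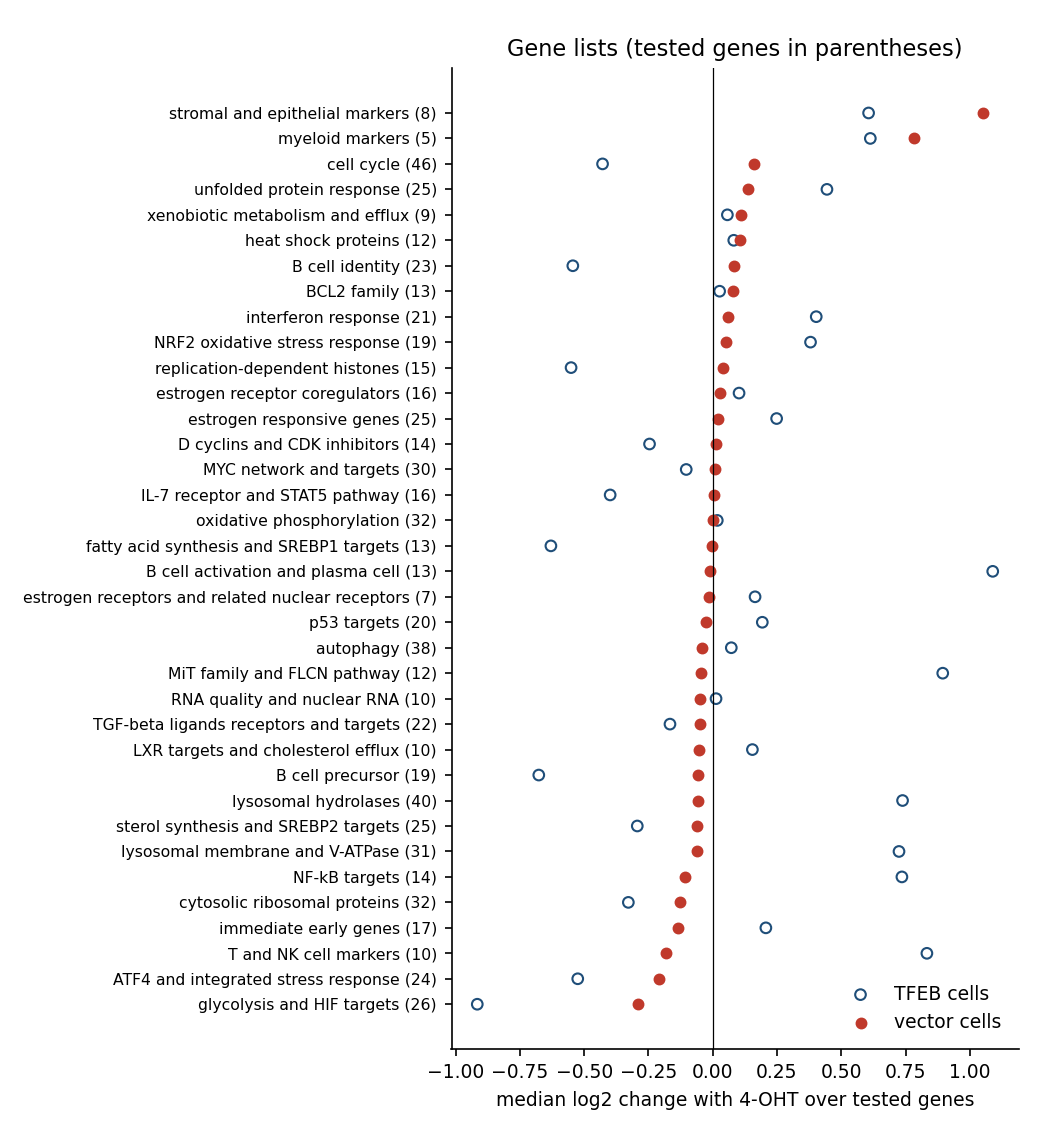
Median log2 difference between 4-OHT and vehicle over the tested genes of each list, in vector cells (red) and TFEB cells (open blue), with the number of tested genes in parentheses, for lists with at least 5. In vector cells the glycolysis list is lowest at -0.29, and the myeloid (0.78) and stromal (1.05) lists, whose genes are few and low, are highest.

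The 2 highest medians belonged to markers of cells not labelled here and moved with 1 library. Over 5 tested myeloid markers the median was 0.78, and without library 2 of the 4-OHT group -0.23. Over 8 tested stromal and epithelial markers it was 1.05, and 0.27 without it. Of these 13 genes none had an unadjusted p under 0.05 with all libraries. Their part in the other results was not tested.

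The reference for the size of the vector differences was the response of TFEB cells, where 3611 genes (27.5%) changed with 4-OHT and 1049 of them at least 2-fold. The TFEB libraries are not used for the difference in vector cells, although they enter the estimate of spread. Of these genes, 709 averaged 100 or more in vector cells, and 605 of those (85.3%) had a vector interval within 2-fold. Over all 8719 genes at that level the share was 96.2%. The median absolute log2 difference of the 709 was 0.18 in vector cells, beside 0.103 over all 8719. In TFEB cells it was 1.42, a value that the choice of genes at 2-fold or more sets, beside 0.272. The effects differed between the lines for 2066 genes (15.8%), and for 755 of the 1049 (72.0%). The choice of genes raises the second share, because the TFEB difference that selected the 1049 is also part of that contrast. Tgfb3 and Tspan13 were the 2 of the 1049 that were also called in vector cells.

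**Figure D5:**
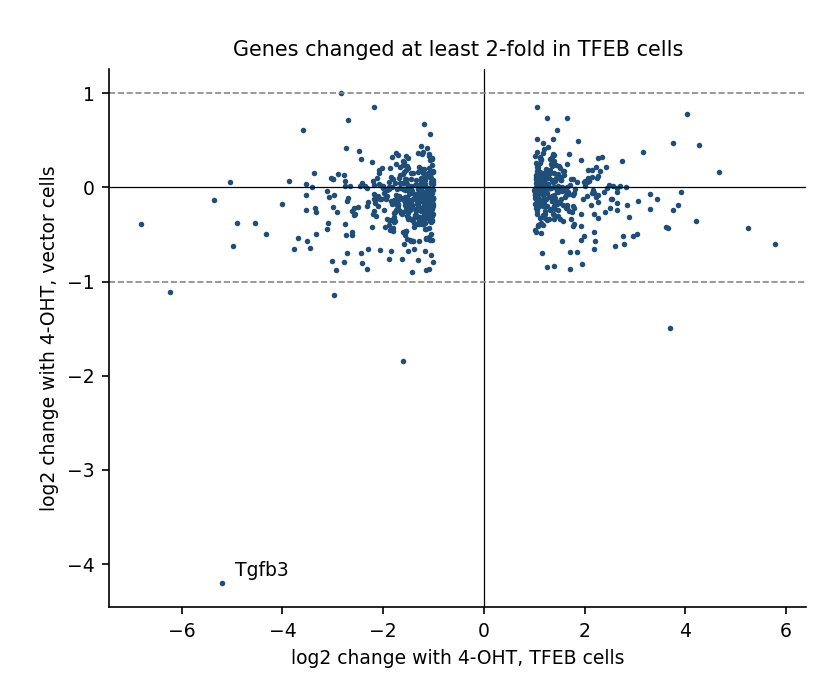
Log2 difference with 4-OHT in vector cells against that in TFEB cells, for the 709 genes that changed at least 2-fold in TFEB cells and had a mean of at least 100 in vector cells. Dashed lines are 2-fold in vector cells, and the lowest point is Tgfb3, at -4.20 in vector cells and -5.20 in TFEB cells.

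Direction was shared somewhat more often among genes with a small p. Of the same 619 genes, 388 (62.7%) had the same sign in TFEB cells, beside 4202 of all 7707 (54.5%). Of the 619, 257 were called in TFEB cells with the same sign and 116 with the opposite sign. Over all tested genes 27.5% were called in TFEB cells, and the matching counts by sign were not taken over the 7707. Across the 7707 genes, which are not independent replicates, Pearson's r between the differences was 0.18 and Spearman's rho 0.13. Acss1 and Cd97 were among the genes of opposite sign, and Tspan13, Erg and Pck2 among those of the same sign.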

How the data were processed

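RNA-seq of total RNA gave 1 value per gene and library. The deposited values are a signal that is never negative, normalized read counts that the authors obtained by scaling each library with 1 factor. The tools were DESeq2 1.6.3, STAR 2.5.3 and HTSeq 0.6.1 with build mm10, per the submitters' processing notes. The annotation, filter and strand setting were not given in the sources used here. Therefore reads of overlapping or antisense genes cannot be told apart. In every library 100% of nonzero values were multiples of the value of 1 read (0.737 to 1.19 normalized counts in vector libraries) to within 0.001, so whole reads were recovered. A gene at 0 had 0 reads, and a floor of 3 reads, 2.21 to 3.56 normalized counts in vector libraries, was used in its place for folds. Floors and intervals cover counting error or the spread of these libraries only.

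Genes that reached 10 in 3 or more of 12 libraries were tested with limma 3.58.1 in R 4.3.3 on log2(value + 1), a pseudocount of 1, with 1 mean per group, a variance trend and 8 residual degrees of freedom. Fold changes are therefore on that scale and understate changes of low genes. Benjamini-Hochberg adjustment ran over all 13111 genes at a threshold of 0.05, two-sided. The interaction contrast compared the effects of the 2 lines in the same fit. edgeR 4.0.16 and DESeq2 1.42.0 were run on the whole reads as alternatives, beside other pseudocounts, filters, scalings, variance models, a replicate block and fits without each library. The scripts were tested on simulated data. Library measures used exact two-sided permutation tests. The members and the 38 gene lists were chosen with earlier results of these data known, and 7 list genes were found under an older symbol. Genes named were those past the threshold, Esr1, Esr2, Gper1, Tfeb, Tgfb3, Myc, Bcl2 and Rn45s, the 10 smallest p with a mean of at least 200 and groups apart, and from the lists the member with the smallest p and the most abundant member, with up to 6 more for the receptor, coregulator, sterol and aryl hydrocarbon lists. The rule takes 107 genes, and the text describes 53 of them, chosen with their values known. A few genes are not reported here. Marker genes of the B cell check, and Heyl, Ccdc40, Ebp, Greb1, Anks6 and Gm20740, were named beside the rule, after their values were seen. Gene positions come from GENCODE and promoter sequences from RefSeq, and no genome sequence was used here.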

Additional observations from a re-analysis of the deposited data

Results flagged for a closer look

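For 45 of the 98 tested genes that the naming rule takes, the difference between 4-OHT and vehicle was not the same in the 2 lines, by limma's interaction contrast with an adjusted p under 0.05 over all tested genes. Over all tested genes the share was 15.8%. The rule takes many genes by a small p in vector cells, and the vector difference is part of this contrast. The count is therefore not that of a neutral choice of genes. Values below are the log2 difference in TFEB cells minus that in vector cells. They are given for the 27 of the 45 genes that the report describes and for Mxd1 and Gstm1, whose contrasts were the largest of the rest in size. The contrast was above 0 for Mxd1 (4.58), which encodes a partner of MAX that opposes MYC, Gstm1 (3.14), a glutathione transferase, Prss23 (3.26), Acss1 (2.51), Ephx1 (2.48), Laptm5 (2.24), Mtor (1.93), Psap (1.57), Cd97 (1.52), Flcn (1.22), Plxnd1 (1.18), Atp6ap2 (0.83) and Tiparp (0.80). It was below 0 for Erg (-2.24), Pou2f2 (-1.86), Bcl2 (-1.77), Igll1 (-1.72), Tfeb (-1.19), Pgk1 (-1.07), Acp6 (-0.97), Mki67 (-0.92), Asns (-0.87), Pck2 (-0.84), Pim2 (-0.84), Fdps (-0.77), Pkm (-0.68), Ccnd2 (-0.54), Shmt2 (-0.53) and Srebf2 (-0.48). In the remaining 16 it ran from -0.68 to 1.30. Tfeb reads in TFEB cells cannot be split between the fusion and the endogenous gene. Bcl2 averaged 20.2 in vehicle and 30.6 in 4-OHT in vector cells, beside 2149 and 983 in TFEB cells. Its contrast therefore sets low counts with a wide interval against high ones. None of the 45 genes passed the threshold in vector cells.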

How the results depend on the processing

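The count of lower genes, 2 with all settings as described, was 0 with a pseudocount of 0.5, with a minimum value of 50, with the filter applied to the vector libraries, with the vector libraries alone, without a variance trend, with a robust prior variance and in edgeR. It was 34 with array weights and 34 in DESeq2, which called 8 and 14 genes higher where the report has 0. Leaving out the library with the most detected genes in each vector group gave 21 higher and 64 lower. Leaving out 1 library at a time gave 0 to 9 higher and 0 to 46 lower, and the cause was not tested. The share of genes with an interval within 1.5-fold, 51.3%, was 52.8% with a pseudocount of 10, 31.2% without a filter, 68.4% with the minimum of 50, 63.5% with the vector filter, 49.5% without a trend, 52.4% with array weights, 50.1% under TMM scaling, 52.4% in edgeR and 40.7% without the library with the most detected genes in each vector group. Within 2-fold, 65.3% became 68.7% with a pseudocount of 10, 38.7% without a filter, 87.2% with the minimum of 50, 81% with the vector filter, 66.1% with array weights, 66.6% in edgeR and 59.5% without those libraries. Without 1 library at a time the shares were 45.9% to 52.3% within 1.5-fold and 62.2% to 65.8% within 2-fold. More genes of low level in the table lower both shares. Bcl2 turned to -0.058 without the library with the most detected genes in each vector group. Among tested genes that the rule takes and the text describes, no other changed sign by more than its standard error. Genes named only beside the rule were not part of this check.

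A replicate block over the 3 numbers gave 0 higher and 2 lower genes, Tgfb3 with an adjusted p of 0.00588 and Tspan13 with 0.00799, and with the vector libraries alone 0 and 0. The correlations of deviations between same-numbered vehicle and 4-OHT libraries were -0.069, 0.17 and -0.0083. Of the 3 4-OHT libraries, 1 correlated best with its own number. So few values cannot show whether same-numbered libraries shared a culture or batch, which the labels do not say. Below about 100 normalized counts the intervals were wide and little can be said, and the cause of that width was not tested.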

Other observations

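Of the other gene groups, limma called Tgfb3 alone after adjustment with all libraries. For the counts below, 2.79% of all tested genes were higher and 3.48% lower at an unadjusted p under 0.05. Of 32 genes of oxidative phosphorylation, 31 had an interval within 1.5-fold, 1 was higher and 1 lower at an unadjusted p under 0.05, and the median log2 difference was 0.0013. None of 15 replication-dependent histone genes, 20 p53 targets, 19 NRF2 targets, 21 interferon response genes and 13 genes of fatty acid synthesis had an unadjusted p under 0.05, and 7 of the 21 interferon genes had an interval within 1.5-fold. Of 30 genes of the MYC network and its targets 1 was higher and 2 lower, with 27 within 1.5-fold. Of 12 heat shock genes 2 were higher, and 11 had an interval within 1.5-fold. Of 17 immediate early genes 3 were lower, with a median of -0.13 and 5 within 1.5-fold, and of 14 NF-kB targets 1 was higher and 1 lower, with 6 within 1.5-fold. Of 22 tested genes of TGF-beta ligands, receptors and targets, 3 were lower at an unadjusted p under 0.05 including Tgfb3, 13 were below 0, and the median was -0.05. Of 16 genes of interleukin-7 and STAT5 signalling 1 was higher and 3 lower. Of 14 D cyclins and CDK inhibitors 2 were higher, of 13 B cell activation and plasma cell genes 1 was higher with 4 within 1.5-fold, and of 10 nuclear and noncoding RNAs that report on RNA quality 1 was higher and 3 lower. Of 10 T and NK cell markers none had an unadjusted p under 0.05, with a summed level of 1152 to 1344 in vehicle and 883 to 1221 in 4-OHT. Erythroid and platelet markers had 1 tested gene, and 5 of 11 were at 0 in all 6 libraries. Of 9 genes of xenobiotic metabolism 1 was higher and 1 lower, of 12 MiT family genes and regulators 1 was lower, of 10 LXR targets 2 were lower, and of 13 tested BCL2 family genes 1 was higher and 1 lower. Intervals within 1.5-fold were found for 3 of the 9 xenobiotic genes, 5 of the 10 LXR targets and 0 of the 10 T and NK cell markers, beside 51.3% of all tested genes. Leaving out 1 vector library at a time moved these small counts. Lower MYC network genes were 0 to 4 and higher ones 0 to 5, higher heat shock genes 1 to 5, higher histone genes 0 to 5, lower immediate early genes 1 to 4 and lower p53 targets 0 to 3. Without library 1 of vehicle 2 of the 10 nuclear and noncoding RNAs were called lower.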
